A study of Xenopus laevis with 28 samples.

Results

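The Nodal ligands of *Xenopus laevis* and their EGF-CFC coreceptors of the tdgf1 (Cripto) family were followed copy by copy from the blastula to the neurula. Members were the gene models whose symbol starts with nodal followed by a digit or a dot, or with tdgf1. The rule found 16 of 45831 models. Of these, 13 were ligand models (5 named nodal3 and 8 others) and 3 were tdgf1 models. The suffixes L and S name the long and short subgenomes of this allotetraploid frog, so an L and an S model of 1 symbol are read here as homeologs, and nodal3.L to nodal3.L5 are tandem copies.

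Nodal ligands are secreted TGF-β family proteins that are cut from a precursor by pro-protein convertases. They bind type I and type II activin receptors, for which most of them need a membrane-anchored Tdgf1 coreceptor, and the receptors phosphorylate Smad2 and Smad3, which act with Smad4 and with partners such as Foxh1 and Mixer. In frog embryos the pathway induces mesoderm and endoderm and patterns the organizer, and it later marks the left side. Lefty and Cerberus are secreted antagonists that the pathway itself induces, while nodal3 is an atypical ligand of the organizer that does not induce mesoderm and is tied to convergent extension movements.

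Poly(A) RNA of whole J strain eggs and embryos, for which the labels give no treatment or mutation, was sequenced with a protocol that does not keep the strand. Clutches from different parents, named Taira and Ueno, each gave 1 library of the unfertilized egg and of stages 8, 9, 10.5, 12, 15, 20, 25, 30, 35 and 40 of Nieuwkoop and Faber. Stages 8 and 9 are blastulae, 10.5 an early gastrula, 12 a late gastrula and 15 a neurula. From the Ueno set came 3 further libraries of oocytes (classes 1 to 2, 3 to 4 and 5 to 6). A second series, also labelled Ueno but with another series label, gave 1 library each of stages 8, 10 and 35. Whether it shares the parents of the Ueno clutch is not given in the sources used here. Stage and clutch are therefore the factors compared, with 1 library per clutch in every stage group. Apart from the second series, each clutch carries 1 series label of its own, so parents and series cannot be told apart. The embryos were minced whole, so fewer cells of a type and less RNA per cell cannot be told apart.

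Values are the authors' TPM (transcripts scaled to a common library total), which are scaled for model length, so levels can be set side by side between models. TPM keeps no read counts, so depth and detection floors are unknown and a value of 0 is only listed as 0. The library labelled stage 40 Ueno was left out because its Spearman correlation over all models was 0.938 with the Ueno egg and 0.703 with stage 40 Taira. At the same stage the clutches correlated at 0.878 to 0.952. Stage landmarks did not run level in both clutches: at stage 8 the early zygotic gene gs17.L was at 8.94 TPM in Taira and 1.23 in Ueno, while at stage 10.5 the mesoderm gene t.L was at 133 and 252. In what follows the value of the Taira library is given first and that of the Ueno library second. Differences are on the scale of log2(TPM + 1), which understates changes of low models, with the standard error of the limma fit over 21 libraries.

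The ligand models were nearly silent before the blastula. In the 3 oocyte and 2 egg libraries, 11 of 13 ligand models were listed at 0 throughout, and the highest value was 0.740 TPM for nodal1.S in the Ueno egg. The summed level of all ligand models was 10.5, 54.3, 128, 18.7 and 5.19 TPM at stages 8, 9, 10.5, 12 and 15 in Taira and at 6.04, 24.4, 48.7, 7.88 and 2.64 in Ueno. The sum was thus highest at the early gastrula in both clutches, and higher in Taira at each of these stages. It covers only the 13 models found, with no nodal5 among them. In the 5 libraries of stages 30 to 40 no ligand model was above 0.730 TPM.

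**Figure D1:**
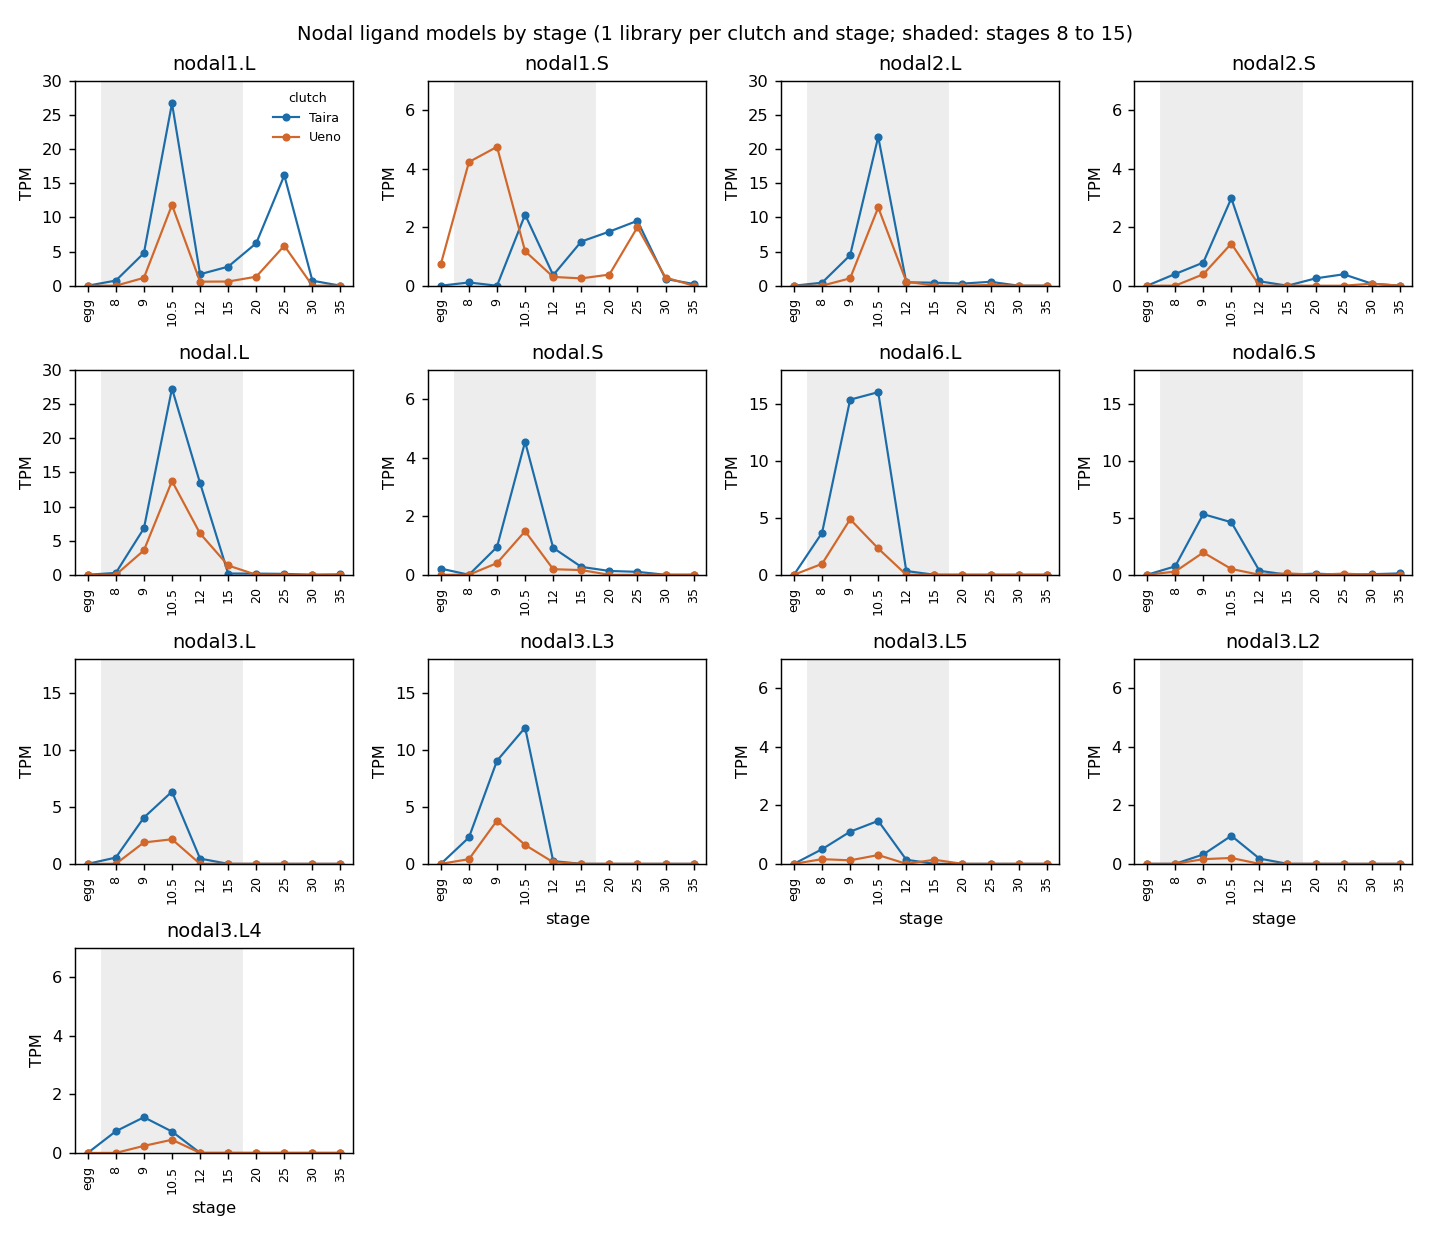
TPM (vertical axis, on scales to 30, 18 or 7 TPM by panel) of the 13 Nodal ligand models in the egg and at stages 8 to 35 (horizontal axis), 1 point per library joined within the Taira and Ueno clutches; stage 40 is not drawn, and shading marks stages 8 to 15. Most models peak at stage 10.5, nodal6.S peaks at stage 9 in both clutches, and nodal1.S is at 4.23 and 4.75 TPM in Ueno at stages 8 and 9 against 0.110 and 0 in Taira.

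Among the ligands, nodal (also known as Xnr4, expressed in the organizer and axial midline) was carried mainly by its L copy. nodal.L (Xelaev18034857m) was at 0.270, 6.80, 27.3, 13.4 and 0.180 TPM at stages 8, 9, 10.5, 12 and 15 in Taira and at 0, 3.58, 13.7, 6.05 and 1.36 in Ueno. Both clutches were highest at stage 10.5, and neither library of stage 9 reached a value of stage 10.5. The model rose from stage 8 to 9 by 2.41 ± 0.39 (limma, adjusted p = 0.00461) and from stage 9 to 10.5 by 1.77 ± 0.39 (limma, adjusted p = 0.00659). Its difference to stage 12 was -1.02 ± 0.39 and missed the threshold (limma, adjusted p = 0.0642), and from stage 12 to 15 it fell by 2.60 ± 0.39 (limma, adjusted p = 0.000381). nodal.S (Xelaev18037109m) was at 0, 0.950, 4.55, 0.920 and 0.270 TPM in Taira over the same stages and at 0, 0.400, 1.49, 0.190 and 0.160 in Ueno. It too was highest at stage 10.5 in both clutches, with a rise of 1.17 ± 0.28 from stage 9 (limma, adjusted p = 0.0103) and a log2 difference of -1.3 ± 0.28 to stage 12 (limma, adjusted p = 0.00325). The single second-series library of stage 10 held 11.7 TPM of nodal.L and 1.14 of nodal.S.

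nodal1 (Xnr1) is a mesendoderm inducer that is later transcribed in the left lateral plate. Among the 10 libraries of stages 8 to 15 in the fit, its S model lay above its L model in the Ueno libraries of stages 8 and 9 only. In Taira both homeologs were highest at stage 10.5 within stages 8 to 15. nodal1.L (Xelaev18018871m) was at 0.750, 4.78, 26.7, 1.68 and 2.79 TPM at stages 8, 9, 10.5, 12 and 15 in Taira and at 0, 1.15, 11.8, 0.590 and 0.610 in Ueno. It was higher in Taira at each of these stages, and highest at stage 10.5 in both clutches. It rose by 2.42 ± 0.38 from stage 9 to 10.5 (limma, adjusted p = 0.000638) and fell by 3.19 ± 0.38 to stage 12 (limma, adjusted p = 0.000107). nodal1.L had a second peak, at 6.23, 16.2 and 0.730 TPM at stages 20, 25 and 30 in Taira and at 1.32, 5.86 and 0 in Ueno. nodal1.S (Xelaev18020131m) was at 0.110, 0, 2.43, 0.360 and 1.51 TPM at stages 8, 9, 10.5, 12 and 15 in Taira and at 4.23, 4.75, 1.18, 0.300 and 0.250 in Ueno, and again at 2.22 and 2.00 at stage 25. At stages 8 and 9 it was thus low in Taira and high in Ueno, the reverse of the other ligand models at stage 9. The second-series stage 8 library, also labelled Ueno, held 6.70 TPM of nodal1.S and 0.05 of nodal1.L. No stage step of nodal1.S passed the test, nor did the test for any difference among the 5 stages (limma, adjusted p = 0.709).

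nodal2 (Xnr2), an inducer of mesoderm and endoderm, had a narrow peak at the early gastrula. nodal2.L (Xelaev18018870m) was at 0.440, 4.47, 21.8, 0.490 and 0.440 TPM at stages 8, 9, 10.5, 12 and 15 in Taira and at 0, 1.08, 11.5, 0.610 and 0 in Ueno. Both values of stage 10.5 lie above every value of the other stages. It rose by 1.49 ± 0.33 from stage 8 to 9 (limma, adjusted p = 0.0432) and by 2.32 ± 0.33 from stage 9 to 10.5 (limma, adjusted p = 0.000278), and fell by 3.45 ± 0.33 to stage 12 (limma, adjusted p = 2.46e-05). nodal2.S (Xelaev18020132m) was at 0.400, 0.790, 2.99, 0.150 and 0 TPM in Taira over the same stages and at 0, 0.390, 1.44, 0 and 0 in Ueno. At these stages it was lower than nodal2.L wherever the values differed, and it was also highest at stage 10.5 in both clutches, with a rise of 0.98 ± 0.23 to stage 10.5 (limma, adjusted p = 0.00889) and a log2 difference of -1.54 ± 0.23 to stage 12 (limma, adjusted p = 0.000342).

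nodal6 (Xnr6) belongs, with nodal5, to the ligands that are known to be transcribed earliest in the vegetal cells. The rule for members found no model named nodal5, so the ligand sums hold none. nodal6.L (Xelaev18018809m) was at 3.69, 15.4, 16.1, 0.330 and 0 TPM at stages 8, 9, 10.5, 12 and 15 in Taira and at 0.960, 4.88, 2.31, 0 and 0 in Ueno. nodal6.S (Xelaev18020157m) was at 0.740, 5.33, 4.62, 0.350 and 0 TPM in Taira over the same stages and at 0.280, 1.96, 0.510, 0 and 0.120 in Ueno. At stage 8 nodal6.L was the highest ligand model of the Taira library, and in Ueno it was second to nodal1.S. In Ueno both homeologs were higher at stage 9 than at 10.5, whereas in Taira nodal6.L was slightly higher at 10.5 and nodal6.S at 9. Neither passed the test from stage 8 to 9 or from 9 to 10.5, although with the second-series stage 8 library added nodal6.S was called higher from stage 8 to 9, by 1.64 (limma, adjusted p = 0.0321). From stage 10.5 to 12 nodal6.L fell by 2.70 ± 0.52 (limma, adjusted p = 0.0018) and nodal6.S by 1.33 ± 0.41 (limma, adjusted p = 0.0252). Without stage 10.5 Taira these differences were -1.70 for nodal6.L (limma, adjusted p = 0.0332) and -0.49 for nodal6.S (0.3998), and without stage 10.5 Ueno that of nodal6.S was -2.16, still called. In the second series nodal6.L was at 0.0700 TPM at stage 8 and 2.33 at stage 10.

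The nodal3 (Xnr3) copies were read from 5 models. nodal3.L3 (Xelaev18018867m) was at 2.32, 9.07, 12.0, 0.240 and 0 TPM at stages 8, 9, 10.5, 12 and 15 in Taira and at 0.410, 3.81, 1.66, 0.140 and 0 in Ueno. nodal3.L (model Suzuki00021_nodal3.L1) was at 0.55, 4.07, 6.35, 0.460 and 0 TPM in Taira over the same stages and at 0, 1.88, 2.16, 0 and 0 in Ueno. The 3 other copies were low: the highest values of nodal3.L5 (Xelaev18018869m), nodal3.L4 (Xelaev18018868m) and nodal3.L2 (Xelaev18018866m) were 1.47, 1.22 and 0.960 TPM in Taira and 0.300, 0.450 and 0.200 in Ueno. nodal3.L rose by 1.62 ± 0.31 from stage 8 to 9 (limma, adjusted p = 0.0171) and fell by 2.00 ± 0.31 from stage 10.5 to 12 (limma, adjusted p = 0.000518), where nodal3.L3 fell by 2.31 ± 0.49 (limma, adjusted p = 0.00324). nodal3.L5 passed no test, and nodal3.L2 and nodal3.L4 did not reach the filter of 1 TPM in 2 libraries, so they are described only. The nodal3 copies together made up 39.1%, 29.1% and 16.8% of the summed ligand level at stages 8, 9 and 10.5 in Taira, and 9.44%, 25.5% and 9.79% in Ueno. How RSEM divided reads among these similar tandem copies, or between homeologs, is not given in the sources used here, so the level of a single copy is less certain than the sum.

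Up to stage 12 the summed coreceptor models ran at higher levels than the summed ligands, and they were already present in oocytes. Only poly(A) RNA was sequenced, so values of oocytes, eggs and stage 8 set side by side do not give a change in RNA amount. No step before stage 8 was tested. The ratio of the coreceptor sum to the ligand sum was 4.31 in Taira and 9.03 in Ueno at stage 10.5. At stage 15 it was 0.638 and 3.25, so the ligand sum was then the higher 1 in Taira. tdgf1.3.L (Xelaev18006973m, listed in RefSeq also as xcr1 and FRL-1) was at 161, 94.0 and 165 TPM in the 3 oocyte classes from youngest to oldest and at 51.8 and 28.2 in the eggs. It was then at 239, 318, 406, 229 and 1.28 TPM at stages 8, 9, 10.5, 12 and 15 in Taira and at 187, 272, 336, 214 and 6.91 in Ueno. Its level was highest at stage 10.5 in both clutches, and no value of stage 15 comes near one of stage 12. No step from stage 8 to 12 passed the test (the largest difference was -0.74 ± 0.45 from stage 10.5 to 12; limma, adjusted p = 0.257), whereas from stage 12 to 15 it fell by 5.71 ± 0.45 (limma, adjusted p = 1.95e-06).

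tdgf1.3.S (Xelaev18010180m) was at 101, 23.4 and 76.5 TPM in the oocyte classes and 37.2 and 32.9 in the eggs. It was lower than tdgf1.3.L in the 3 oocyte libraries, the Taira egg and both libraries of each of stages 8 to 15, but higher in the Ueno egg. RefSeq lists tdgf1.2.S on chromosome 1S and no tdgf1.3.S, so its pairing with tdgf1.3.L rests on the symbols in the deposited table, and the S model may not be the homeolog of tdgf1.3.L. It was at 115, 104, 93.3, 32.0 and 0 TPM at stages 8, 9, 10.5, 12 and 15 in Taira and at 111, 117, 82.8, 39.7 and 1.29 in Ueno. It fell by 1.28 ± 0.35 from stage 10.5 to 12 (limma, adjusted p = 0.0128) and by 4.60 ± 0.35 from stage 12 to 15 (limma, adjusted p = 1.36e-06). tdgf1.1.L (Xelaev18006976m, listed in RefSeq also as XCR3) was at 141, 143, 52.2, 12.4 and 2.03 TPM at stages 8, 9, 10.5, 12 and 15 in Taira and at 153, 144, 21.3, 2.79 and 0.380 in Ueno, after 30.5 and 34.1 in the eggs. It fell at each step from stage 9 on, with a log2 difference of -2.07 ± 0.46 to stage 10.5 (limma, adjusted p = 0.00716), -2.27 ± 0.46 to stage 12 (limma, adjusted p = 0.00243) and -1.80 ± 0.46 to stage 15 (limma, adjusted p = 0.0122). Without stage 12 Ueno the difference to stage 12 was -1.50 (limma, adjusted p = 0.0431), and without stage 12 Taira that to stage 15 was -1.03 (0.196).

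**Figure D2:**
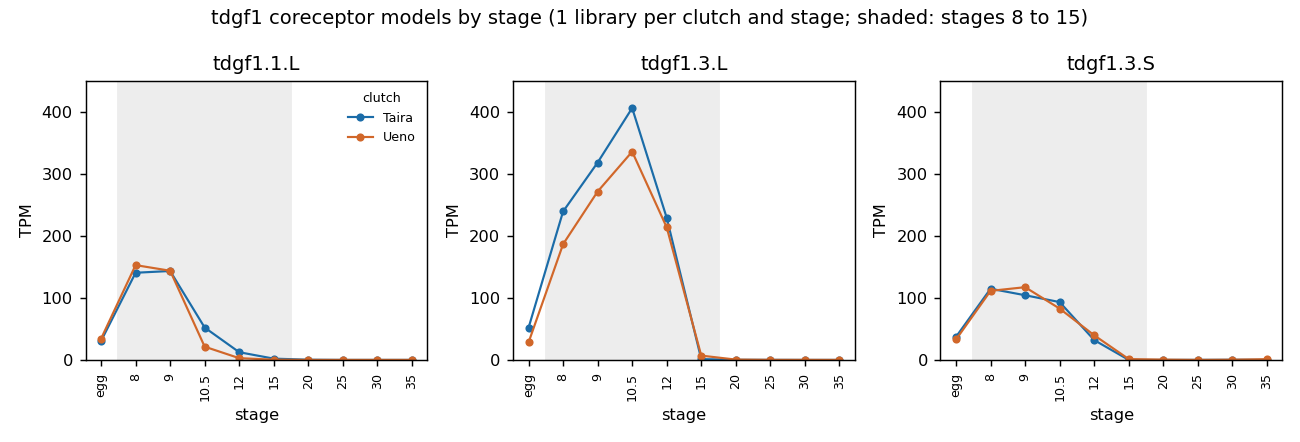
TPM (vertical axis, to 450 in each panel) of the 3 tdgf1 models in the egg and at stages 8 to 35 (horizontal axis), 1 point per library joined within the Taira and Ueno clutches; stage 40 is not drawn, and shading marks stages 8 to 15. tdgf1.1.L is down to 52.2 and 21.3 TPM at stage 10.5, where tdgf1.3.L is at 406 and 336, and all 3 are under 7 TPM at stage 15.

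Summed over the 3 models, tdgf1 was at 495, 566, 552, 274 and 3.31 TPM at stages 8, 9, 10.5, 12 and 15 in Taira and at 451, 533, 440.2, 256 and 8.58 in Ueno. Up to stage 12 the sums of the clutches lay closer together than those of the ligands. The share of tdgf1.3.L in the pair of models named tdgf1.3 was 67.6%, 75.3%, 81.3% and 87.8% at stages 8, 9, 10.5 and 12 in Taira, and 62.6%, 69.8%, 80.2% and 84.3% in Ueno. That share was higher at each stage than at the one before, in both clutches. The rule for members found no model named tdgf1.2, although RefSeq (assembly Xenopus_laevis_v10.1) places tdgf1.2.L next to tdgf1.1.L on chromosome 1L.

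Set against all 28171 models tested, few genes were called from stage 8 to 9, and nodal.L, nodal2.L and nodal3.L were among those called higher. These were 3 of the 14 members tested, where 1.13% of all models were called higher, and 0 members were called lower, where 0.00355% of all models were. nodal2.L and nodal3.L reached 1 TPM in 4 libraries each, those of stages 9 and 10.5, and nodal.L in 7, none of them of stage 8. All 3 thus entered the test through later groups where they are high, so the count of 3 is a description. At an unadjusted p under 0.05, 8 members passed. The share of all models under that cut was not taken, so this count is a description. With the second-series stage 8 library added as a further Ueno library, nodal6.S and nodal3.L3 (limma, adjusted p = 0.0499) were called higher as well. With the 10 libraries of stages 8 to 15 alone, nodal1.L was called higher (limma, adjusted p = 0.0420), whereas nodal.L (0.0673), nodal2.L (0.144) and nodal3.L (0.0607) were not. No member was called after median-of-ratios scaling, which gave adjusted p = 0.0504 for nodal.L, 0.2003 for nodal2.L and 0.0788 for nodal3.L (limma). The call of nodal.L was lost without stage 8 Ueno (limma, adjusted p = 0.0746) or stage 9 Taira (0.111), that of nodal2.L without stage 8 Taira (0.212), stage 8 Ueno (0.406) or stage 9 Taira (0.866), and that of nodal3.L without stage 8 Taira (0.0628), stage 8 Ueno (0.2997) or stage 9 Taira (0.328).

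From stage 9 to 10.5 the L and S models of nodal and nodal2 and the model nodal1.L rose, and tdgf1.1.L fell. Thus 5 of 14 members were called higher, against 6.34% of all models, and 1 was called lower, against 9.38%. nodal.S and nodal2.S reached 1 TPM in 2 libraries each, those of stage 10.5, and so entered the test through the group where they are high; the count of 5 is a description. After median-of-ratios scaling the same 6 members were called, while the split of all models called higher and lower went from 1787 and 2642 to 1877 and 1075. Quantile normalization ended the calls of nodal.S (limma, adjusted p = 0.0629) and nodal2.S (0.0722). With 0.1 in place of 1 added to the TPM, nodal.L (limma, adjusted p = 0.159), nodal.S (0.0677), nodal2.S (0.169) and tdgf1.1.L (0.0666) were not called. nodal1.L and nodal2.L kept their calls when each of the 4 libraries was left out in turn. Without stage 9 Ueno the calls of nodal.L (limma, adjusted p = 0.103), nodal.S (0.108), nodal2.S (0.0931) and tdgf1.1.L (0.0969) were lost, that of nodal.L also without stage 10.5 Taira (0.0732), and that of tdgf1.1.L also without stage 10.5 Ueno (0.138). Without stage 10.5 Taira, nodal6.S was called lower, at -1.41 (limma, adjusted p = 0.0194). nodal.S and nodal2.S each fell below the filter in 2 of the 4 left-out fits. At an unadjusted p under 0.05, 6 members passed, again with no share of all models to set beside it.

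From stage 10.5 to 12 most ligand models fell: nodal.S, nodal1.L, both nodal2 and both nodal6 models, nodal3.L and nodal3.L3, joined by tdgf1.1.L and tdgf1.3.S. Thus 10 of 14 members were called lower, where 23.3% of all models were, and 0 were called higher by limma, where 6.10% were. Models that pass the filter only through their gastrula values had to fall somewhere, so this count is a description and not support for a coordinated fall. At an unadjusted p under 0.05, 12 members passed, but the share of all models under that cut was not taken. Median-of-ratios scaling moved the median of all models from -0.26 to 0 and the split of all calls higher and lower from 1718 and 6566 to 3532 and 2950, and it ended the calls of nodal6.S (limma, adjusted p = 0.0503) and tdgf1.3.S (0.223). Without stage 10.5 Taira the calls of nodal3.L3 (limma, adjusted p = 0.0556), nodal6.S (0.3998) and tdgf1.3.S (0.129) were lost. nodal6.S and tdgf1.3.S also lost theirs without stage 12 Taira (0.105 and 0.0759) or stage 12 Ueno (0.103 and 0.0612). In turn, nodal.L was called lower without stage 12 Taira (limma, adjusted p = 0.0480), and nodal3.L5 without stage 10.5 Ueno (0.0226).

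From stage 12 to 15 nodal.L and the 3 tdgf1 models fell, so that 4 of 14 members were called lower, where 10.4% of all models were, and 0 were called higher, where 12.3% were. At an unadjusted p under 0.05, 4 members passed, with no share of all models taken at that cut. By then most other ligand models were already near 0. The call of tdgf1.1.L was lost without stage 12 Taira (limma, adjusted p = 0.196) or stage 15 Ueno (0.108), while nodal.L, tdgf1.3.L and tdgf1.3.S kept theirs without any 1 of the 4 libraries. Over the 5 stages together, 12 of 14 members differed among stages, where 64.6% of all models did, the exceptions being nodal1.S and nodal3.L5 (limma F-test, adjusted p = 0.107 for nodal3.L5). Models that pass the filter only through their gastrula values were bound to vary among stages, so this count too is a description.

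**Figure D3:**
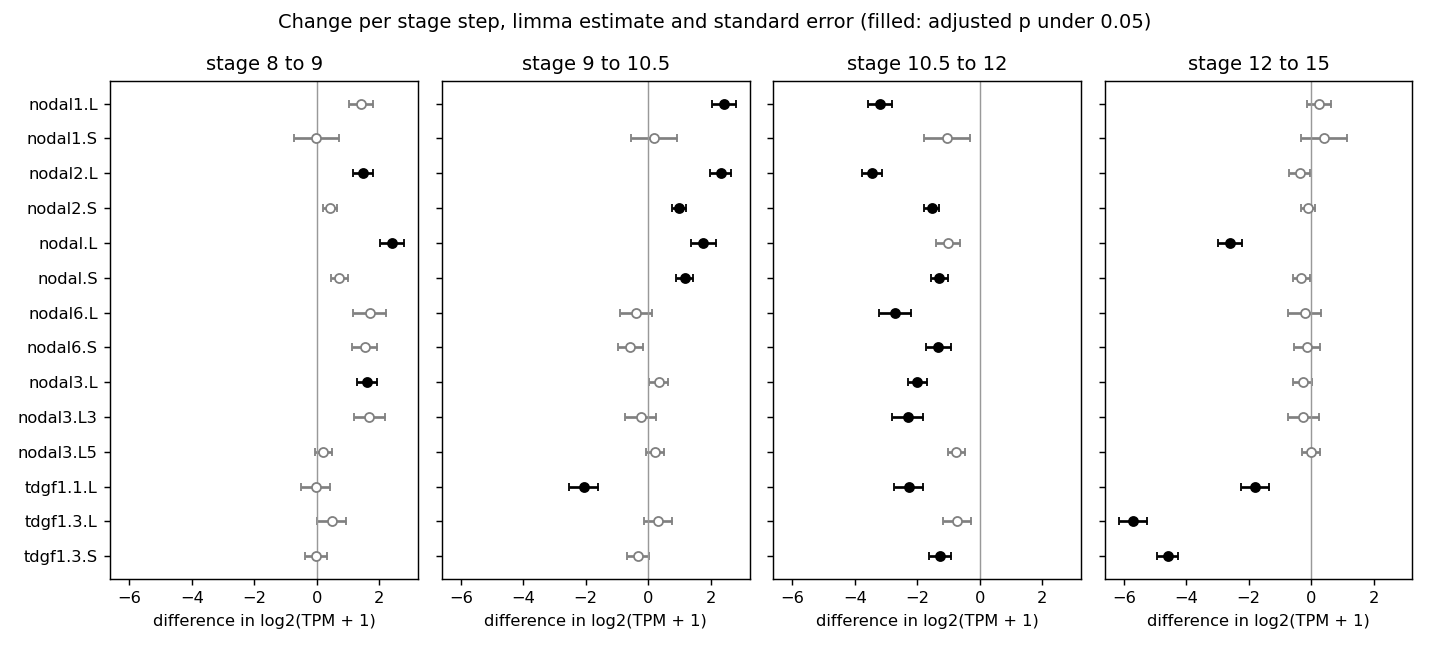
Difference in log2(TPM + 1) between neighbouring stages (horizontal axis, points with standard error bars from limma) for the 14 members tested (vertical axis), 1 panel per step; filled points have an adjusted p under 0.05. The filled points lie right of 0 from stage 8 to 9, right of 0 except tdgf1.1.L (-2.07) from stage 9 to 10.5, and left of 0 in both later steps.

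The clutches differed in the level of several ligands, in the same direction as most of the transcriptome. At stage 10.5 all 13 ligand models were higher in Taira, where 64.3% of all models with unequal values were. At stage 9 it was 12 of 13, the exception being nodal1.S, where 60.8% of all such models were. At stage 8, 10 were higher in Taira and 1 in Ueno, where 59.3% of all such models were higher in Taira. The counts at stage 12 were 11 and 1, where 65.8% were. At stage 15, 4 were higher in Taira, 3 higher in Ueno and 6 equal, where 70.0% of all such models were higher in Taira. Most ligand values of stage 15 were under 1 TPM. In the fit, the Ueno minus Taira term was -0.91 ± 0.17 for nodal1.L (limma, adjusted p = 0.000773), -0.41 ± 0.15 for nodal2.L (0.0312) and -0.26 ± 0.10 for nodal2.S (0.0477). These 3 of 14 members were called lower in Ueno, where 44.9% of all models were. 0 members were called higher, where 6.55% were, and none of the tdgf1 models was called. After median-of-ratios scaling the calls of nodal2.L (limma, adjusted p = 0.0686) and nodal2.S (0.107) were lost and tdgf1.3.S was called higher in Ueno, by 0.52 (0.0209). This term is taken over the egg and all stages in the fit. With the 10 libraries of stages 8 to 15 alone, nodal2.L (limma, adjusted p = 0.0573) and nodal2.S (0.123) were not called. There nodal3.L (-0.64, limma, adjusted p = 0.0380) and nodal6.L (-1.10, 0.0356) were called lower in Ueno, and 7731 of 24003 models were called in either direction. Leaving out 1 library gave adjusted p of 0.0526 to 0.0664 for nodal2.L without either library of stage 8, 9, 10.5, 15, 20 or 25, and of 0.0654 to 0.0998 for nodal2.S without either library of stage 8, 9, 12, 20 or 25. Conversely, nodal.L was called lower in Ueno without either library of stage 15 (0.0378 and 0.0383), and nodal.S without either library of stage 8 (0.0482 and 0.0483) or 35 (0.0394 and 0.0422). The landmarks t.L, gs17.L and myod1.S were higher in Ueno at stage 10.5 (myod1.S at 12.8 and 28.1 TPM, gs17.L at 1136 and 2212), whereas gsc.L was at 66.3 and 53.9. The other copies did not all follow: gs17.S was at 328 and 245 TPM, myod1.L at 22.4 and 21.4 and gsc.S at 87.5 and 48.2. Whether a difference in the exact age of the embryos has a part in the clutch difference was not tested. Taira and Ueno libraries in the fit also differ in series, which cannot be told apart from the parents.

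In 5 pairs with 1 L and 1 S model the homeologs could be compared within each library over stages 8 to 15. The L copy was higher in all 5: the mean log2 ratio of L to S was 1.54 ± 0.11 for nodal (limma, adjusted p = 3.3e-06), 0.72 ± 0.28 for nodal1 (0.0400), 0.87 ± 0.10 for nodal2 (4.2e-05), 0.70 ± 0.07 for nodal6 (2.43e-05) and 1.69 ± 0.08 for the models named tdgf1.3 (2.66e-07), whose pairing rests on the symbols alone. The background is high, since 50.0% of 5812 pairs were called with L higher and 39.1% with S higher, with a median ratio of 0.19. tdgf1.3.L was above tdgf1.3.S in 10 of 10 libraries, the L model in 8 of 10 for nodal, nodal1 and nodal2, and in 6 of 10 for nodal6. The exceptions of nodal1 were the Ueno libraries of stages 8 and 9, where the log2 ratio was -2.39 and -1.42, against 0.66 and 2.53 in Taira.

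The ratio, taken with 1 added to each TPM, also varied by stage. It differed among the 5 stages for nodal (limma, adjusted p = 0.00106), nodal2 (0.00115), nodal6 (0.00132) and tdgf1.3 (0.00443) and not past the threshold for nodal1 (0.0510), where 77.7% of all pairs were called. At low TPM the added 1 draws the ratio toward 0, as in the ligand pairs at stages 8 and 15 and in nodal2 and nodal6 at stage 12. For the ligand pairs this test therefore cannot tell a change in the ratio from a change in level. The L share of nodal was 87.7%, 85.7% and 93.6% at stages 9, 10.5 and 12 in Taira and 89.9%, 90.2% and 97.0% in Ueno. That of nodal6 was 83.3%, 74.3% and 77.7% at stages 8, 9 and 10.5 in Taira and 77.4%, 71.3% and 81.9% in Ueno. The call of nodal1 with L higher was lost with an added value of 0.1 (limma, adjusted p = 0.175), with no filter (0.0684), and without the clutch block (0.108). It was also lost without stage 8 Taira (0.125), stage 9 Taira (0.108), or the Ueno library of stage 10.5 (0.129), 12 (0.125) or 15 (0.131).

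**Figure D4:**
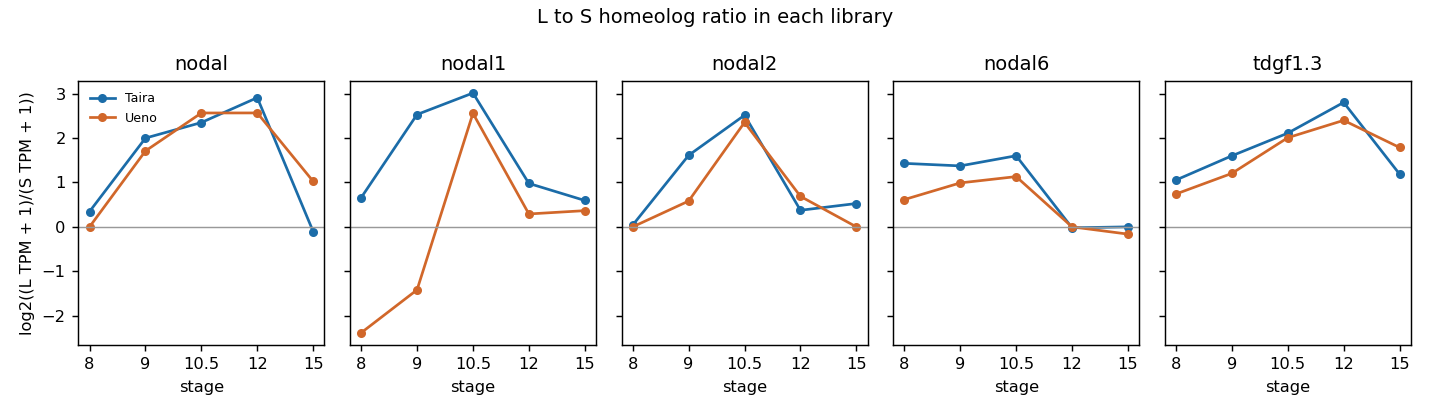
Log2 ratio of the L to the S model, each as TPM + 1 (vertical axis), at stages 8 to 15 (horizontal axis), 1 point per library joined within the Taira and Ueno clutches, for the 5 pairs of models. The tdgf1.3 models are paired by their symbols alone and may not be homeologs. The tdgf1.3 ratio is above 0 in all 10 libraries, and the nodal1 ratio is at -2.39 and -1.42 in Ueno at stages 8 and 9.

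By position, several of these models are neighbours. RefSeq, whose assembly differs from the one behind the files and was used only for names and order, carries 9 of the 16 symbols. It lists nodal6.L directly after nodal5.L and nodal5.2.L on chromosome 3L. Farther along, with 50 genes between, it lists nodal3.1.L and nodal3.2.L, symbols that no model of the deposited table carries. After 3 more genes come nodal2.L and nodal1.L, with 0 genes between that last pair. nodal2.L and nodal1.L, the neighbours, had the same peak stage, but nodal1.L alone of them had the second peak at stage 25. The homeologs nodal1.S and nodal6.S are on 3S, nodal.L and nodal.S on 7L and 7S, and tdgf1.3.L and tdgf1.1.L both on 1L.

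The other parts of the pathway were read from gene lists. These were chosen with earlier results of these data known, so counts of their called models are descriptions. Of the 4 other ligands of the Nodal and activin branch tested, gdf3.1 rose from stage 8 to 9, from 4.18 and 0.530 to 34.1 and 31.2 TPM (3.58 ± 0.47; limma, adjusted p = 0.000781), and again to stage 10.5, to 285 and 261 TPM (3.03 ± 0.47; limma, adjusted p = 0.000584). At stage 10.5 this single ligand model thus stood above the sum of the 13 Nodal ligand models in both clutches. Of the 10 receptor models tested, 1 was called lower from stage 10.5 to 12 and 1 from stage 12 to 15, where 23.3% and 10.4% of all models were called lower. Both times it was tgfbr1.S, a type I receptor of the TGF-β branch, which fell by 1.63 ± 0.32 in the first of these steps (limma, adjusted p = 0.00215). Of the 6 convertase models, 3 fell from stage 10.5 to 12, where 23.3% of all models were called lower, with furin.S going from 36.4 and 21.6 to 7.37 and 5.75 TPM (limma, adjusted p = 0.00113); furin.L and pcsk5.S lost that call after median-of-ratios scaling.

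Among the 21 models of transducers and nuclear partners, 5 were higher and 0 lower from stage 8 to 9, where 1.13% of all models were called higher. From stage 9 to 10.5, 5 were higher and 5 lower, where 6.34% of all models were called higher and 9.38% lower. Their median difference at that step was -0.23, but 0.12 after median-of-ratios scaling and 0.08 after quantile normalization, so its direction turned. The forkhead partner foxh1.L, abundant in the egg at 260.1 and 333 TPM, went from 418 and 663 TPM at stage 9 to 161 and 93.6 at stage 10.5, a log2 difference of -2.09 ± 0.40 (limma, adjusted p = 0.00258). foxh1.2.L, another forkhead model, rose from 4.12 and 0.370 TPM at stage 8 to 70.2 and 141 at stage 9 (5.25 ± 0.64; limma, adjusted p = 0.000463). The homeodomain partner mixer.L was at 9.05 and 1.59 TPM at stage 9 and 396 and 236 at stage 10.5, a rise of 5.91 ± 0.44 (limma, adjusted p = 1.28e-06). From stage 10.5 to 12, 13 models of this list were lower and 1 higher, where 23.3% and 6.10% of all models were, but after median-of-ratios scaling 6 were lower and 4 higher.

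The 3 secreted antagonist models named here differed in time course. lefty.L, a feedback inhibitor, was at 0.590, 12.7 and 106 TPM at stages 8, 9 and 10.5 in Taira and at 0.110, 11.5 and 115 in Ueno. The rise to stage 10.5 was 3.09 ± 0.65 (limma, adjusted p = 0.00496), while that from stage 8 to 9 was lost after median-of-ratios scaling (limma, adjusted p = 0.109). cer1.S, the Cerberus antagonist of the anterior endoderm, rose from 2.16 and 0.810 to 266 and 199.8 TPM from stage 9 to 10.5 (6.60 ± 0.45; limma, adjusted p = 5.84e-07). dand5.L, a maternal antagonist known as Coco, went from 265 and 417 TPM at stage 9 to 102 and 56.2 at stage 10.5, a log2 difference of -2.12 ± 0.44 (limma, adjusted p = 0.00494). The S model, dand5.S, was at 125 and 97.9 TPM at stage 10.5 and was not called lower at that step. Of the 11 antagonist models tested, 4 were higher and 1 lower from stage 9 to 10.5, where 6.34% and 9.38% of all models were, with a median of 0.18. Of 10 intracellular inhibitors, 2 were called then, both smad7 models and both higher, with smad7.S going from 7.02 and 5.76 to 21.9 and 24.0 TPM (limma, adjusted p = 0.000892).

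Most mesendoderm and organizer targets were higher at the stage of the ligands' gastrula peak. Of 52 models tested, 20 were higher and 0 lower from stage 8 to 9, and 46 were higher and 0 lower from stage 9 to 10.5, against 1.13% and 6.34% of all models called higher. At the latter step the list's median difference was 3.30 and that of all models -0.08. mix1.L, a homeobox gene of the mesendoderm, went from 3.01 and 0.660 TPM at stage 8 to 35.8 and 33.0 at stage 9, a rise of 3.78 ± 0.45 (limma, adjusted p = 0.000434). The counts after median-of-ratios scaling were 12 and 45 higher at these steps. From stage 10.5 to 12, where the ligand sum was lower, 6 targets were higher and 5 lower, where 6.10% and 23.3% of all models were. After that scaling 16 targets were higher and 4 lower, against 3532 and 2950 of the 28171 models. From stage 12 to 15, 5 targets were higher and 25 lower, where 12.3% and 10.4% of all models were. Of the 22 gastrulation movement genes, 11 were higher from stage 9 to 10.5 (median 1.39), where 6.34% of all models were. Among them was pcdh8.2.L, a paraxial protocadherin, which went from 0.55 and 0.310 to 104 and 83.8 TPM (limma, adjusted p = 1.63e-05).

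**Figure D5:**
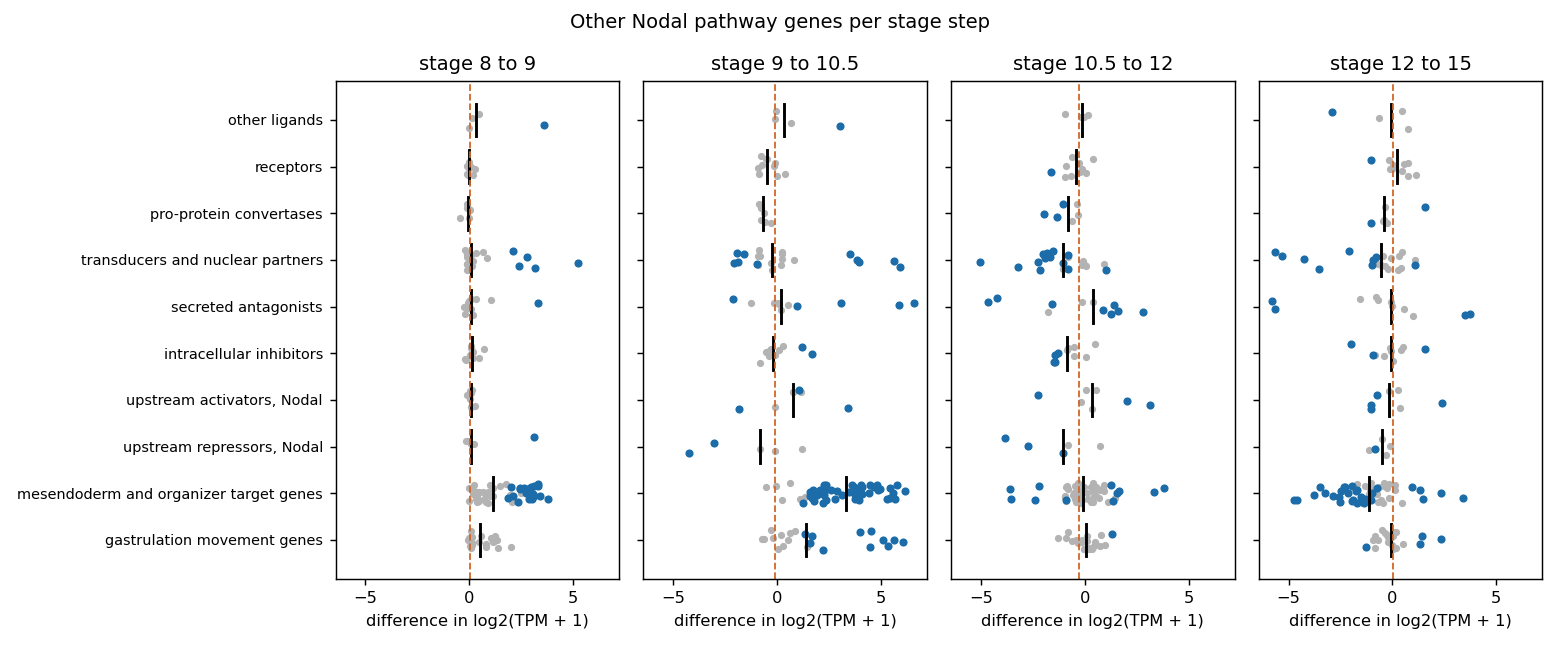
Difference in log2(TPM + 1) per stage step (horizontal axis) for each model of 10 gene lists (vertical axis), 1 panel per step; blue points have an adjusted p under 0.05, short black bars are list medians and the dashed line is the median of all models tested. Vertical scatter within a list only separates the points. From stage 9 to 10.5 the 46 called targets lie right of the line, with a list median of 3.30.

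The genes most alike in profile were ranked by Pearson's r of log2(TPM + 1) over the 21 libraries, among 12483 models with a symbol. These are descriptions over libraries that share clutch, stage and scaling. nodal.L was closest to the forkhead gene foxd4l1.2.L (r = 0.970) and had gs17.S (r = 0.968) and mixer.L (r = 0.959) among its first 5. nodal2.L was closest to lpar6.S (r = 0.926), followed by mix1.S (r = 0.889) and mix1.L (r = 0.881). nodal3.L was closest to foxh1.2.L (r = 0.899) and nodal6.L to pcdha13.S (r = 0.917), while the best match of nodal1.L, with its second peak, was fam83b.S at r = 0.876. The coreceptors matched other genes: tdgf1.1.L was closest to mcm3.L (r = 0.9895), a replication licensing factor, tdgf1.3.L to prkar2b-like.S (r = 0.987) and tdgf1.3.S to gdf9.S (r = 0.988), an oocyte growth factor.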

How the data were processed

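The deposited values are TPM per gene model, made by the authors with BWA 0.7.10 and RSEM 1.2.19, per the submitters' processing notes; the name of the deposited table, per the labels, gives the cDNA set JGIv18pV2. Settings, depth and how reads shared by copies were divided are not given in the sources used here. Of the 28 libraries, 21 entered the fit: egg and stages 8 to 40 of both clutches, without the library labelled stage 40 Ueno. Models with a TPM of at least 1 in at least 2 libraries were tested (28171, of which 14 members), leaving out nodal3.L2 and nodal3.L4. Stage and clutch, the latter as an additive term, explained log2(TPM + 1) in a linear model run in limma 3.58.1 under R 4.3.3. Variances were moderated with eBayes with trend, on 9 degrees of freedom. Tests were two-sided, adjusted by Benjamini and Hochberg over all models within a contrast, and called at an adjusted p under 0.05. L to S ratios were fitted in the same way over the 10 libraries of stages 8 to 15, in the 5812 pairs whose L and S models summed to 2 TPM or more in 2 libraries. The methods were tested on simulated data. The simulated L to S pairs lay at higher levels than most ligand pairs here, so they do not cover ratios at low TPM.

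The labels name the clutch, which pairs the libraries: differences between the clutches at 2 stages correlated across models at 0.230 to 0.712 over 10 stage pairs. Clutch and series coincide in the fit, so the pairing is by series as much as by parents. With 1 library per clutch and stage, p-values measure the spread between these libraries. Each model has 1 spread, pooled over all stages in the fit. That includes the egg and the late stages, where most ligand models were nearly silent in both clutches. It may thus understate the clutch spread where ligands are high. With stages 8 to 15 alone, the 3 members called from stage 8 to 9 lost their calls and nodal1.L gained one. The later steps kept 6, 10 and 4 members called, in order. Named genes were all members, up to 4 called genes with the largest change per list and step, and the 5 models most alike in profile with a highest stage mean of at least 5 TPM; foxh1.L was added after its values were seen. Members and lists were chosen with earlier results of these data known, and no list was tested. Alternatives were other added values, filters, scalings and blocks, and left-out or added libraries.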

Additional observations from a re-analysis of the deposited data

Results flagged for a closer look

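For 10 of 56 steps of the tested members the Taira and Ueno clutches changed in opposite directions, and in 5 of these both clutches had at least 1 TPM. With 1 library per clutch and stage, none of these differences could be tested. The largest was that of nodal1.S from stage 9 to 10.5, where log2(TPM + 1) changed by 1.78 in Taira and by -1.40 in Ueno. Over the same step nodal3.L3 changed by 0.37 in Taira and -0.85 in Ueno, and nodal6.L by 0.0569 and -0.83. From stage 8 to 9 tdgf1.1.L changed by 0.0286 and -0.0876, and tdgf1.3.S by -0.14 and 0.0743.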

How the results depend on the processing

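Over all alternatives, values of single members kept direction and side of the threshold in 1111 cases, lost the threshold in 103, gained it in 21 and reversed in 29; of the counts, 146 stayed within 1.5 times and 46 moved. Levels under about 1 TPM limit what can be said of low copies, and the depth is unknown. The cause of each change below was not tested.

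With no replicate block, so without pairing by clutch, the members called from stage 8 to 9 went from 3 to 1, with nodal2.L at adjusted p = 0.238 and nodal3.L at 0.0724 (limma), and nodal6.S (0.0818) and tdgf1.3.S (0.0606) from stage 10.5 to 12 and tdgf1.1.L (0.0562) from stage 12 to 15 were lost. All models called fell from 320 to 198, from 4429 to 1855, from 8284 to 3513 and from 6408 to 2789 over the 4 steps in order. No other call of a member in a stage step changed under that fit.

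From stage 8 to 9, where 3 members were called, the count was 0 with an added value of 5, with median-of-ratios scaling and with quantile normalization. It was 1 with a filter of 5 TPM (nodal.L), where 8 members were tested and nodal3.L was not. It was 1 with the 10 libraries of stages 8 to 15 alone (nodal1.L, not among the 3), and 5 with the second-series library added (nodal3.L3 and nodal6.S besides the 3). Leaving out 1 library gave 0 to 3. All models called were 483 and 197 with added values of 0.1 and 5, 174 with median-of-ratios scaling, 152 with quantile normalization, 177 with the library labelled stage 40 Ueno, and 136 to 257 with 1 library left out. From stage 9 to 10.5, members called went from 6 to 2 with an added value of 0.1, and to 2 to 6 with 1 library left out. All models called were 2952 with median-of-ratios scaling, 7206 with the 10 libraries alone, 1432 with the library labelled stage 40 Ueno and 1449 to 3558 with 1 left out. From stage 10.5 to 12, members called went from 10 of 14 tested to 6 of 8 tested with a filter of 5 TPM. The called members that passed that filter kept their calls. Without stage 10.5 Taira 11 members passed the filter of 1 TPM, and without stage 10.5 Ueno 12 did, so counts with 1 library left out are not alike. All models called were 2733 with the library labelled stage 40 Ueno and 4261 to 5824 with 1 left out. From stage 12 to 15, members called were 3 to 4 with 1 library left out. All models called were 9983 with the 10 libraries alone, 1974 with the library labelled stage 40 Ueno and 2948 to 5006 with 1 left out. For the clutch term, members called went from 3 to 1 with an added value of 5, with quantile normalization and with the library labelled stage 40 Ueno, and to 6 with the second-series library; all models called went to 7731 with the 10 libraries alone. With the library labelled stage 40 Ueno, tdgf1.1.L was not called from stage 9 to 10.5 (limma, adjusted p = 0.3304), 10.5 to 12 (0.172) or 12 to 15 (0.336), nor tdgf1.3.S from 10.5 to 12 (0.4003).

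The log2 differences that reversed belonged to members not called in that comparison. With an added value of 5, nodal1.S was at 0.0238 from stage 8 to 9 and -0.0432 from stage 9 to 10.5, and the clutch term of tdgf1.3.L was -0.0707. With quantile normalization nodal3.L5 was at -0.0564 from stage 8 to 9. With median-of-ratios scaling nodal3.L3 was at 0.0489 and tdgf1.3.S at 0.0193 from stage 9 to 10.5. With the library labelled stage 40 Ueno the clutch term of tdgf1.1.L was 0.00356. Leaving out 1 library gave these ranges. From stage 8 to 9 they were -1.26 to 1.25 for nodal1.S, -0.34 to 0.28 for tdgf1.1.L and -0.21 to 0.14 for tdgf1.3.S. From stage 9 to 10.5 they were -1.06 to 1.44 for nodal1.S, -1.25 to 0.76 for nodal3.L3, -0.16 to 0.62 for nodal3.L5, -0.16 to 0.83 for nodal3.L, -1.39 to 0.62 for nodal6.L and -1.41 to 0.26 for nodal6.S. From stage 12 to 15 they were -0.29 to 1.12 for nodal1.S, -0.24 to 0.0413 for nodal2.S, -0.51 to 0.0120 for nodal3.L3, -0.51 to 0.10 for nodal6.L and -0.44 to 0.17 for nodal6.S. For the clutch term of tdgf1.3.L the range was -0.16 to 0.14.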
